A study of Mus musculus with 2 samples.

Results

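BCL2 family proteins and inhibitors of apoptosis (IAP proteins) were examined in macrophages that had been grown from mouse bone marrow and were labelled either c-Maf+/- or c-Maf-/-. The group was chosen by name for its place in the apoptosis pathway, with earlier results of these data known. It comprised 10 genes: Bcl2a1d, Mcl1, Bcl2l1, Bax, Bak1, Bcl2l11, Pmaip1, Birc2, Birc3 and Xiap. They were 10 of the 12419 genes measured on both arrays and were read by 14 probes, each flagged as well above background on both. Marrow cells of each genotype had been kept for 5 days in CMG14-12 medium, a source of the macrophage growth factor M-CSF, and were then given lipopolysaccharide (LPS) at 100 ng/ml for 5 h. No untreated cells were analysed here, so every value describes LPS-treated macrophages. There was 1 one-colour array of total RNA per genotype, both on 1 slide, so the genotypes could not be tested against each other and no p-value is given. How the Maf allele was made and how many mice gave marrow are not given in the sources used here.

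BCL2 family proteins decide whether the outer mitochondrial membrane is opened during apoptosis. Pro-survival members such as MCL1 hold back the pore formers BAX and BAK, and BH3-only proteins such as BIM bind the pro-survival members and release that block. IAP proteins act further down or beside this switch, XIAP by binding caspases and the cellular IAPs as ubiquitin ligases in the tumour necrosis factor receptor complex. Macrophages are known to depend on M-CSF for survival, and LPS is known to induce several pro-survival genes through the transcription factor NF-kB. The Maf gene encodes c-Maf, a transcription factor of the basic leucine zipper class found in macrophages.

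Values are processed signals of the scanner software and log2 differences, c-Maf-/- minus c-Maf+/-, after each array was scaled to its own 75th percentile of non-control spots. The arrays had 45.3% (c-Maf+/-) and 44.9% (c-Maf-/-) of non-control spots well above background, and 0 were saturated. Maf itself went from signals of 15101 and 541 at its 2 probes in c-Maf+/- to 12.6 and 5.96 in c-Maf-/-, where neither probe was well above background. Which part of the gene was deleted is not given in the sources used here. Each of the 14 probes of the group had 1 spot, so the only error of a single probe was the SD of the scanner's error model, which has a preset part of 10% of the signal and gave 0.20 to 0.23 for a log2 difference. Across 215 other probes printed at least 8 times, the SD of the log2 difference between spots had a median of 0.07 and a 95th percentile of 0.23. Between probes of the same gene, the SD had a median of 0.09 and a 95th percentile of 0.48 over 3452 genes. These errors cover the array and not cultures or mice. Scaling to the spiked-in control RNAs instead would raise every difference by 0.14, which turns medians and values closer to 0 than this from negative to positive. Over all genes measured, the difference was centred on -0.02 (median; SD 0.41), and the central 95% of genes lay between -0.88 and 0.81.

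None of the 10 genes differed by 2-fold or more between the arrays, beside 3.16% of all genes measured in either direction. None passed 1.5-fold either, beside 11.9%. Of the 14 probes 0 passed 2-fold, beside 2.81% of all 23082 probes (1.35% higher and 1.46% lower), and 1 passed 1.5-fold, beside 11.1% (4.94% higher and 6.19% lower). The gene values ran from -0.52 for Birc2 to 0.23 for Birc3, with a median of 0.00 (SD 0.23 over the 10 genes), 5 above 0 and 5 below 0. Birc3 owes its place to a mean of disagreeing probes: with the brightest probe of each gene it was at -0.27, 6 of the 10 genes were below 0 and Mcl1 was highest at 0.13. With so few genes, a share of 0 cannot be set apart from such a background. In 8 of the 10 genes the difference was under 0.3 in size, and Birc2 and Bcl2l11 were the exceptions. RNA from whole cultures cannot show whether a lower signal means fewer cells of a kind or less RNA per cell.

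**Figure D1:**
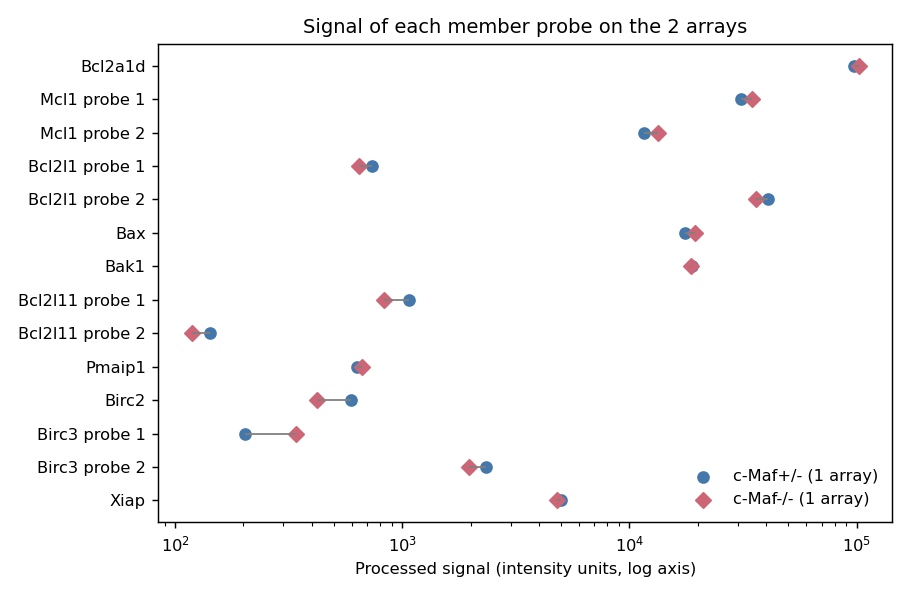
Processed signal (log axis, intensity units) of each probe of the 10 genes on the c-Maf+/- array (circles) and the c-Maf-/- array (diamonds), 1 spot per probe and array. The symbols nearly coincide for Bcl2a1d, Bak1 and Xiap and lie farthest apart for Birc2 and the first Birc3 probe.

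The pro-survival genes Bcl2a1d, Mcl1 and Bcl2l1 were bright and nearly alike on both arrays. Bcl2a1d encodes a mouse copy of A1, a short-lived MCL1-like protein that NF-kB is known to induce in myeloid cells. Its probe (mm9 build, chromosome 9, 88618165 to 88618224) read 97695 in c-Maf+/- and 102394 in c-Maf-/-, a difference of 0.04 (error-model SD 0.20), which 86.1% of all genes measured equalled or exceeded in size. The probe is annotated to transcripts of Bcl2a1a and Bcl2a1b as well, so these near-identical copies could not be told apart. A separate probe for the copy Bcl2a1c had signals of 7250 and 7594 and also differed by 0.04.

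Mcl1 encodes a pro-survival protein with a very short life, which myeloid cells are known to need. Its probe at bases 95466855 to 95466914 of chromosome 3 (mm9) read 31023 in c-Maf+/- and 34518 in c-Maf-/-, and the one at 95465543 to 95465602 read 11611 and 13297. Both were slightly higher in c-Maf-/-, by 0.13 and 0.17, within the error-model SD of 0.20 of each with the main scaling. The highest background or scaling alternative put them at 0.26 and 0.31. With the main scaling Bcl2l1, which encodes BCL-XL, went the other way by a similar amount. Its brighter probe (chromosome 2, 152606404 to 152606463) had signals of 40527 and 36023 and its dimmer one (152655185 to 152655244) 736 and 645, so the differences were -0.20 and -0.22. The mean over both was 0.15 for Mcl1 and -0.21 for Bcl2l1, and 57.6% and 46.0% of all genes were at least as far from 0. On the spike-in scale the means were 0.29 for Mcl1 and -0.07 for Bcl2l1.

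The pore-forming effectors differed little between the arrays with the main scaling. Bax, whose protein moves from the cytosol to mitochondria when activated, read 17634 in c-Maf+/- and 19417 in c-Maf-/-, a difference of 0.11 (chromosome 7, 52717122 to 52717181). Bak1, whose protein sits in the mitochondrial membrane from the start, had signals of 18904 and 18714, a difference of -0.04 (chromosome 17, 27156807 to 27156866). Each rested on 1 probe and lay within its error-model SD of 0.20. Bax was at 0.21 after quantile normalization and 0.25 on the spike-in scale. The sign of Bak1 depended on the scaling: it was 0.10 when scaled to spike-ins, 0.04 after quantile and 0.01 after loess normalization.

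The BH3-only genes did not go together. Bcl2l11 encodes BIM, a death activator kept low by growth factor signalling, and both of its probes were lower in c-Maf-/-. The probe that spans an intron at chromosome 2 between 127972893 and 127983988 read 1073 in c-Maf+/- and 833 in c-Maf-/-, a difference of -0.39 (error-model SD 0.20). It is shown because it reads the part of the transcript that carries the killing domain, with capitals on the bases for the core of the BH3 helix.
Bcl2l11 probe: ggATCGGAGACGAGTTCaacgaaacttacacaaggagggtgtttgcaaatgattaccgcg
The second probe, annotated to 2 other transcripts of the gene (127954736 to 127955417), was dim, at 142 and 119, and differed by -0.29 (error-model SD 0.23). Both probes thus gave the same direction, with a mean of -0.34 (SD 0.07 over 2 probes), a 1.26-fold difference, and the mean stayed between -0.39 and -0.20 under the alternative settings. Of all genes measured, 28.2% were at least as far from 0. Pmaip1, which encodes NOXA, a BH3-only protein that targets MCL1, had signals of 632 and 666 and a difference of 0.05.

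**Figure D2:**
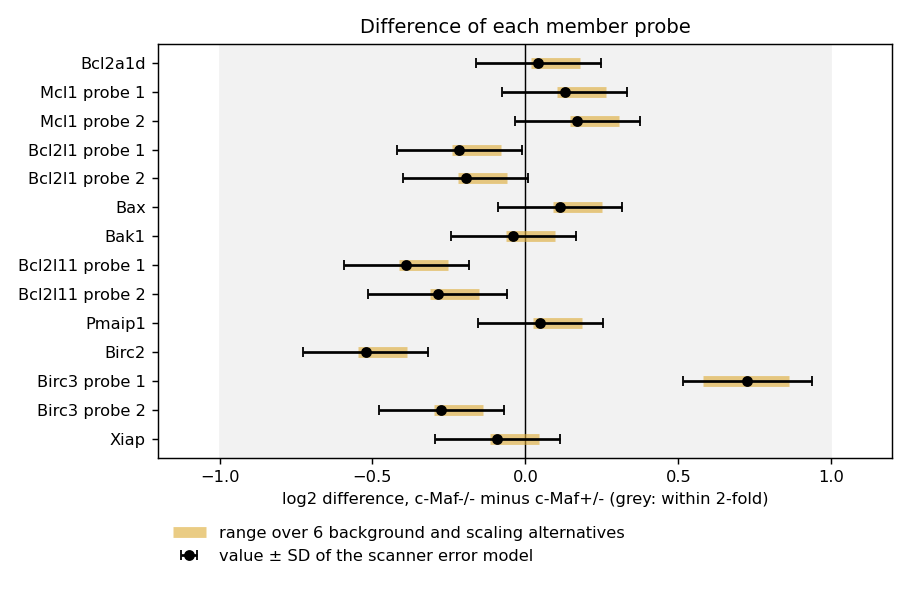
Log2 difference of each probe of the 10 genes, c-Maf-/- minus c-Maf+/-, with the SD of the scanner's error model as bars and the range over 6 background and scaling alternatives in yellow. Every probe lies within 2-fold (grey), and the Birc3 probes, at 0.73 and -0.27, lie on opposite sides of 0.

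Among the IAP genes, Birc2 had the largest gene-level difference of the 10 and Birc3 could not be given a direction. Birc2 encodes cIAP1, a ubiquitin ligase that modifies RIPK1 in the tumour necrosis factor receptor complex. Its probe (chromosome 9, 7818688 to 7818747) read 597 in c-Maf+/- and 423 in c-Maf-/-, so the c-Maf-/- array was 1.44-fold lower, a difference of -0.52 against an error-model SD of 0.20. This value rested on 1 probe and 1 spot per array, 14.7% of all genes measured were at least as far from 0, and it lay between -0.55 and -0.39 under the alternative settings. Its place within the whole distribution is thus on the lower flank and not in the tail.

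Birc3 encodes cIAP2, a close relative of cIAP1 and a known NF-kB target, and lies next to Birc2 in the genome, with 35662 bases between their nearest probes. Its brighter probe (7854409 to 7854468), annotated to the RefSeq transcript, read 2329 in c-Maf+/- and 1960 in c-Maf-/-, a difference of -0.27. Its dimmer probe, 1694 bases further along chromosome 9 (7856162 to 7856221), read 203 and 342, a difference of 0.73. With the main scaling it was the only one of the 14 probes past 1.5-fold, a log2 difference of 0.585. The lowest background or scaling alternative put it at 0.582, just under that line. The dimmer probe is annotated to a cDNA clone and to no RefSeq transcript. The differences at the 2 probes lay a 2-fold ratio apart, 3.42 times the error-model SD of that gap, and 1.68% of the 2804 genes with exactly 2 measured probes had a gap as large. The gene mean of 0.23 therefore averages opposite readings, and with the brighter probe alone Birc3 was at -0.27. Both probe sequences are shown because they are what disagrees, with no capitals since no part is singled out.
Birc3 brighter probe: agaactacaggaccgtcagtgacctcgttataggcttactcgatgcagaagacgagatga
Birc3 dimmer probe: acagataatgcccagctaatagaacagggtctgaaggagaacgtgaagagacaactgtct
In the other 3 genes with 2 probes, Mcl1, Bcl2l1 and Bcl2l11, the largest gap between the probes of a gene was 0.103.

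Xiap, on the X chromosome (39462720 to 39462779), encodes the IAP that binds and blocks caspases directly. Its signals were 5000 in c-Maf+/- and 4775 in c-Maf-/-, a difference of -0.09 within its error-model SD of 0.20, but on the spike-in scale it was 0.04. The IAP genes spanned -0.52 to 0.23 by gene mean, and -0.52 to -0.09 with the brightest probe of each gene.

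**Figure D3:**
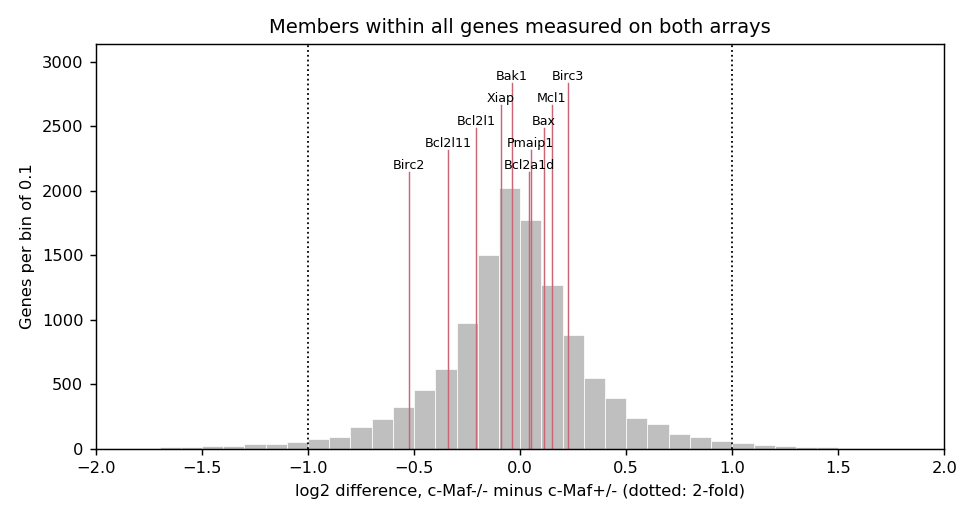
Number of genes per bin of 0.1 in log2 difference, c-Maf-/- minus c-Maf+/-, for the 12419 genes measured on both arrays (0.258% lie outside the plotted range), with the 10 genes marked by red lines and 2-fold by dotted lines. All 10 lie in the body of the distribution, Birc2 lowest at -0.52, and Birc3, at 0.23, is a mean of probes on opposite sides of 0.

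Sequence upstream of the start sites was searched for the recognition elements of the factors named above. RefSeq promoters (build GRCm38.p6, 250 bases before to 50 after a start) were held for 9 of the 10 genes, with 15 start sites; the missing entry was Pmaip1. On both strands, the c-Maf core element TGCTGAC was in 2 of the 15, beside 4.67% of 32851 mouse promoters, and the NF-kB form GGG, any pair of bases, TTTCC also in 2, beside 1.63%. The core element lay in the promoter of Birc2, its first base 38 bases before the start, and in that of Mcl1, 18 bases after the start. The Birc2 match overlaps a cyclic AMP response element, TGACGTCA, which 1.79% of promoters hold. The NF-kB form lay in the promoters of Mcl1 and Bcl2l1, 28 and 218 bases before the start. It was not found in the promoters searched for Bcl2a1d and Birc3, the genes described above as induced by NF-kB. These are matches of letters and not measured binding sites. The 120 bases before a start are shown for Birc2, the gene farthest from 0, with the core element in capitals, and for Mcl1, with the NF-kB form in capitals.
Birc2 promoter (chr9:7837058-7837177, minus strand): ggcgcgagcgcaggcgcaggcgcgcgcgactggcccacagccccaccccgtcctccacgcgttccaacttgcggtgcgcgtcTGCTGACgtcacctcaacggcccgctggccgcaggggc
Mcl1 promoter (chr3:95658601-95658720, plus strand): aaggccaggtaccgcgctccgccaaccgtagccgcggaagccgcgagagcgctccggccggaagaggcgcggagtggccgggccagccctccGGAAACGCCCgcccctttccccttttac
Of these, Birc2 was at -0.52 and Mcl1 at 0.15.

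The rest of the apoptosis pathway was described by 9 lists holding 80 other genes, of which 65 were measured on both arrays. Of these 65, Bnip3 was at least 2-fold higher in c-Maf-/- (background 1.43% of all genes) and 0 were at least 2-fold lower (background 1.74%). At 1.5-fold, 3 were higher and 3 lower, beside 5.37% and 6.51% of all genes. Their median was -0.05, with 37 of 65 below 0, beside 53.7% of all genes measured below 0, the share to read beside each count below 0 in a list. Bcl2l10, Bcl2l14, Bok, Bik, Bmf, Hrk, Birc7, Septin4, Fasl, Usp13 and Perp were not well above background on either array.

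Bnip3 encodes a BH3-like mitochondrial protein known for mitophagy and as a target of hypoxia-inducible factors. Its brightest probe went from a signal of 12607 in c-Maf+/- to 25922 in c-Maf-/-, the next from 8808 to 20886 and the dimmest from 235 to 558. The mean of the 3 probes was 1.15 (SD 0.12), 2.22-fold higher in c-Maf-/-, and all 3 were at least 2-fold higher. Among the other BH3-only genes, Bid, which links caspase 8 to mitochondria, was at -0.42, and the p53-inducible Bbc3 (PUMA) at 0.06. The median over the 5 measured was 0.10.

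Of the other pro-survival and BCL2-like genes, Bcl2 itself was dim, at signals of 110 and 75.5, with a difference of -0.57, and Bcl2l2, which encodes BCL-W, was at 0.42 over 2 probes (SD 0.04). The 5 measured had a median of 0.04. Other genes with the BIR domain of the IAP family had a median of -0.12 over 6, with Naip1, an inflammasome receptor, at -0.77 from signals of 58.2 and 34.9, and the giant ubiquitin ligase gene Birc6 at -0.23. Naip1 turned to 0.06 when its second, undetected probe was kept. Birc5, the mitotic survivin gene, was at -0.03 over 3 probes.

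Genes that oppose IAPs or leave mitochondria during death had a median of 0.07 over 6. Htra2, a mitochondrial protease that can bind IAPs, was at 0.47 over 2 probes (SD 0.02), and the endonuclease gene Endog at 0.40. Diablo, which encodes the IAP antagonist SMAC, was at 0.12 over 2 probes. The apoptosome and caspase list had a median of -0.20 over 9, with 6 below 0 (53.7% of all genes). Apaf1, the scaffold of the apoptosome, was at -0.58 with signals of 842 and 574, and Dffb, the nuclease of DNA laddering, was at 0.66 from dim signals of 29.8 and 48.1. The initiator genes Casp8 and Casp9 were at -0.20 and 0.38.

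The death receptor and tumour necrosis factor receptor list had a median of 0.01 over 13. Cflar, which encodes the caspase 8 inhibitor c-FLIP, was at -0.49 over 4 probes (SD 0.19), each below 0, and Traf2, which brings cIAP1 and cIAP2 to the receptor, was at -0.47 over 2 probes (SD 0.08). Elsewhere in the list the receptor gene Fas was at -0.42, the kinase gene Ripk1 at -0.20, the adaptor genes Traf1 and Tradd at 0.01 and 0.05, and Traf3 at 0.38, so the genes of the receptor complex lay on both sides of 0. Genes of BCL2 protein turnover had a median of -0.32 over 5, and all 5 were below 0 with the main scaling, beside 53.7% of all genes. Trib1, an adaptor of protein degradation, was at -0.74 over 2 probes (SD 0.09), and Fbxw7, which marks MCL1 for degradation, was at -0.32 over 2 (SD 0.11).

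NF-kB survival targets had a median of -0.19 over 10, with 7 below 0 (53.7% of all genes). Ier3, an immediate early gene, was at 0.68 with signals of 6177 and 10070, and Cflar was at the other end. The p53 target list had a median of 0.00 over 13, with Phlda3, a repressor of AKT signalling, at -0.61 and Apaf1 again at -0.58. These last lists share genes with those above, among them Cflar, Traf2, Fas and Apaf1, so their medians are not separate evidence.

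**Figure D4:**
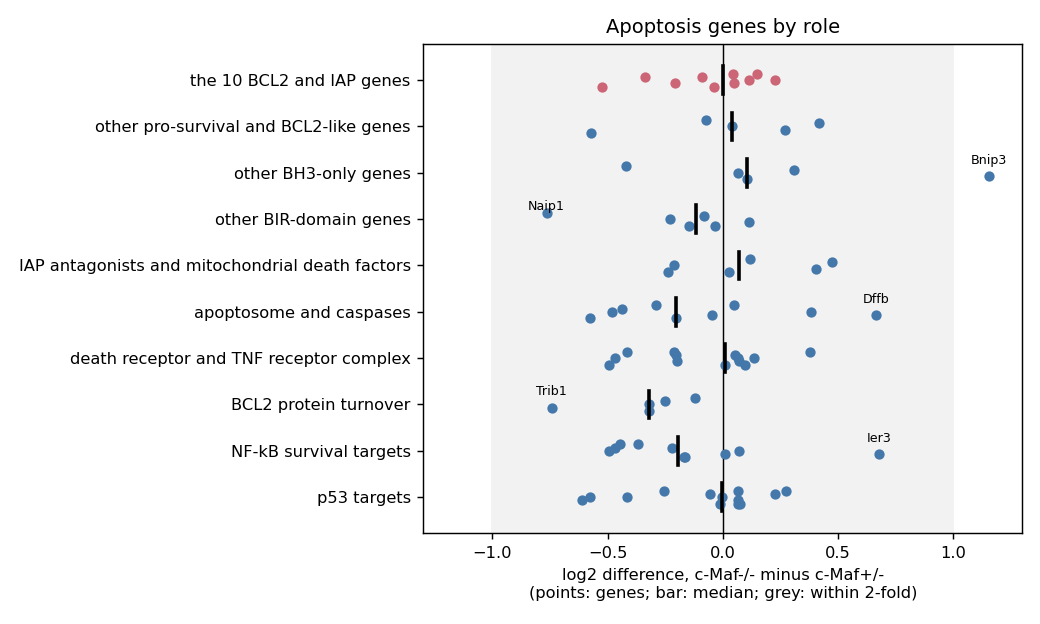
Log2 difference, c-Maf-/- minus c-Maf+/-, of every measured gene in the 10-gene group and in 9 other apoptosis lists, each point 1 gene, with black bars at the medians and grey marking 2-fold. Bnip3, at 1.15, is the only point past 2-fold.

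Markers of other cells were set beside these values, since neutrophils are rich in A1 and MCL1 and erythroid cells in BCL-XL. Macrophage markers were bright, with Csf1r at 100872 and 103471, and 9 of 10 were measured, with a median of 0.05 and summed signals of 288409 and 323932. Only Cd163 among them was not well above background. Of the neutrophil markers 12 of 14 were measured, of which 5, Mpo, Prtn3, Ltf, Ngp and S100a9, were past 2-fold downward in c-Maf-/- (background 1.74% of all genes), though Mpo, Prtn3 and S100a9 came to -0.82, -0.72 and -0.87 in the alternative that left each closest to 0. Their median was -0.63 with summed signals of 197854 and 178263. Lcn2, Mmp8 and Csf3r went the other way, at 0.36, 0.46 and 0.13, Lcn2 from a signal of 71434 to 93372, while Cxcr2 and Retnlg were not well above background. Markers of dendritic cells, 7 of 10 measured, gave a median of -0.60, with 5 below 0 (53.7% of all genes). Fscn1 and Itgax were at least 2-fold lower in c-Maf-/- (background 1.74% of all genes). Itgax came to -0.77 in the alternative that left it closest to 0. Flt3 and Siglech went the other way, at 0.47 and 0.06, Flt3 from dim signals of 24.5 and 34.7. The summed signals were 44634 and 46526, of which Siglech alone gave 41554 and 43949. Erythroid and megakaryocyte markers had a median of 0.72 over 7 of 12, none past 2-fold with the main scaling. Of these 7, 5 were at least 1.5-fold higher in c-Maf-/- (background 5.37% of all genes). Ppbp was at 0.79 with signals of 562 and 986, and came to 0.70 in the alternative that left it closest to 0. Gp9 was at 0.91 from signals of 77.7 and 149, and Itga2b at 0.53 from 79.9 and 118. These came to 0.50 and 0.34 in the alternative that left each closest to 0. Hba-a1, Slc4a1 and Gata1 lay near background, at signals of 30.7, 33.4 and 41.2 in c-Maf+/- and 55.4, 56.0 and 68.6 in c-Maf-/-. Their differences of 0.83, 0.72 and 0.71 fell to 0.30, 0.33 and 0.31 in the alternative that left each closest to 0. The summed signals were 58892 and 57647, of which the platelet factor gene Pf4, at -0.07, alone gave 58067 and 56215. Alas2, Klf1, Epor and Hbb-b1 were not well above background. Lymphocyte, mast cell and stromal or endothelial markers had medians of -0.07, -0.06 and -0.36 over 4, 3 and 6 genes. Bcl2a1d and Mcl1 were at 0.04 and 0.15 beside the lower neutrophil markers, and Bcl2l1 was at -0.21 beside the higher erythroid ones. The part of these cells in the values was not tested.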

How the data were processed

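Both arrays were analysed, 1 for each genotype, with 50 ng of Cy3-labelled total RNA per array per the labels' protocols. Deposited values were spot intensities from Agilent Feature Extraction 10.7.3.1 (protocol GE1_107_Sep09, design 028005), per the file headers background-subtracted and detrended within the array and not normalized between arrays. Other deposited columns used were the error-model intensity, the mean and background intensities and the 0 or 1 flags.

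Log2 values, the 75th percentile scaling (signals of 291 and 296) and probe means were computed here with Python 3.11.15 and limma 3.58.1. Outlier spots (136 and 149) were dropped, and a gene was the mean of probes well above background on both arrays. Of the non-control probes, 31813 matched a RefSeq gene and 23861 did not. Probe coordinates are mm9; exons were not annotated here. Scripts were tested on simulated data.

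Members and lists were chosen with earlier results of these data known. Besides the 10 members, text names Maf and, per apoptosis list, the 2 genes farthest from 0 and any past 2-fold; Bcl2a1c, Bbc3, Birc5, Diablo, Casp8, Casp9, Fas, Ripk1, Traf1, Tradd, Traf3 and the named markers were added after their values were seen. Alternatives changed background, scaling, dim-probe filter, probe choice and outlier spots.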

Additional observations from a re-analysis of the deposited data

How the results depend on the processing

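In each of the 10 alternatives, 0 of the 10 genes passed 1.5-fold, and the largest value of any gene was 0.55 in size. The sign was the same in all 10 for 7 genes. It changed for Bak1 with spike-in, quantile and loess scaling, for Xiap with spike-in scaling (0.04) and for Birc3 with the brightest probe (-0.27). Spike-in scaling, on 8 transcripts, moved every difference by 0.14. The median of the 10 genes was then 0.14 with 3 below 0, and that of the 65 other apoptosis genes 0.082. With the brightest probe the median of the 10 genes was -0.066. The count of other apoptosis genes at least 1.5-fold lower, 3, was 1 with normexp background correction and 5 with median scaling. Bnip3 stayed at least 2-fold higher in every alternative (1.01 to 1.29). Over all genes the 2-fold counts of 177 higher and 216 lower became 68 and 109 under normexp, 82 and 124 when no background was subtracted, 885 and 871 without the filter on dim probes, 506 and 508 with detection on at least 1 array, and 262 and 142 (64.9% higher, against 45.0%) with spike-in scaling. No replicate could be left out and no paired analysis was possible because each genotype had 1 array. Signals near background limit Bcl2, Dffb, Naip1, the second Bcl2l11 probe and the markers Hba-a1, Slc4a1, Gata1 and Flt3.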

Other observations

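Cdkn1a, a cell cycle inhibitor and p53 target picked out here after its values were seen, had probes that disagreed as those of Birc3 did. Its 3 probes ran from -0.56 to 0.99, with an SD of 0.81, while its brightest probe went from a signal of 21951 in c-Maf+/- to 19368 in c-Maf-/-.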
